A study of Mus musculus with 6 samples.

Results

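The 10 genes described here encode cell-surface receptors with a tyrosine kinase domain: Met, Axl, Mertk, Tyro3, Pdgfra, Pdgfrb, Ddr1, Ddr2, Fgfr1 and Fgfr2. They were listed by name, and every probe set annotated to 1 of these symbols alone was taken, which gave 23 probe sets of the 22626 tested and all 10 genes of the 12393 tested. The probe set with the highest mean over the 6 arrays stood for its gene, and the others are given beside it. Met, Axl, Pdgfra and Pdgfrb were listed because they are published targets of miR-34a.

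The study measured messenger RNA on Affymetrix mouse arrays in 3 samples of 344SQ with inducible expression of the microRNA miR-34a and 3 samples of 344SQ with a control vector. 344SQ is a metastatic mouse lung adenocarcinoma line, and the labels describe it as high in Zeb1. It is a single line in both groups. The labels disagree on the material: the titles of the miR-34a samples and the design text speak of tumours in mice, and other fields of cultured cells. The labels do not state whether the replicates are separate mice or cultures. The p-values therefore describe the spread between these arrays, some or all of which may be technical, and 3 arrays a group set the precision.

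A receptor tyrosine kinase binds its ligand outside the cell, pairs with a second receptor and adds phosphate to tyrosines of its own tail, where adaptors dock and pass the signal to the RAS-MAP kinase and PI3 kinase-AKT routes. In tumours, Met, Axl and the PDGF and FGF receptors are known for driving growth, migration and survival, in the cancer cells and in fibroblasts and macrophages around them. A microRNA pairs through its seed with matching bases in a messenger RNA, mostly in the 3' untranslated region, and lowers its stability and translation. The mature miR-34a strand is shown because it is the molecule that was expressed. It is given 5′ to 3′ from RefSeq (GRCm38.p6, chr4:150068473-150068494, plus strand), with the seed, bases 2 to 8, in capitals.
mmu-miR-34a-5p: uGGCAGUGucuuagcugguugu
A messenger RNA pairs with this seed through CACUGCC. In the same table mmu-miR-34b-5p, mmu-miR-449a-5p and mmu-miR-449c-5p hold the same seed. Mature miR-34a was not measured by these arrays, and messenger RNA sequences were not searched for the match.

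The epithelial keratin genes Krt18 and Krt8 were bright on all 6 arrays, at 23645 to 24926 and 21273 to 22834 in miR-34a samples and 21668 to 24779 and 19705 to 22489 in vector samples (linear intensity). Krt19, also among the 3 brightest epithelial markers, ran from 11682 to 12905 in miR-34a samples. In vector samples it ran from 11940 to 19739, with vector 1 the highest. Cdh1, the epithelial cadherin gene, ran from 13142 to 13878 in miR-34a samples and from 12237 to 13563 in vector samples. Genes of fibroblasts, macrophages and endothelium were measured too, and the dimmest of the 66 marker genes, Cnn1, was never below 61.6, while the lowest value in the table is 1. The lower quartile of all probe sets on an array was 167 to 177. Some markers, such as Cnn1 at 61.6 to 82.2 and Ovol2 at 70.8 to 89.6, lay below it on all 6 arrays. These values therefore do not show that all 66 were detected. Vector 1 stood apart from the other arrays: on the first principal component it lay at 43.3, vector 2 and vector 3 at 5.42 and 8.75, and the miR-34a arrays between -21.7 and -16.3. No 2 arrays held identical values. RNA integrity was read from control probe sets as the log2 signal at the 3' end minus that at the 5' end, which for Gapdh was 0.098 to 0.125 in miR-34a and -0.054 to 0.069 in vector arrays, and for Actb 0.54 to 0.59 in miR-34a and 0.34 to 0.60 in vector arrays. The part of RNA integrity and of vector 1 in the receptor values was not tested beyond the fits without vector 1 given below. Intensities of different probe sets are not on a common scale, so levels are compared between samples and not between genes.

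Among the 10 receptor genes, Met, the receptor for hepatocyte growth factor, fell in miR-34a samples and Ddr1, a collagen receptor of epithelial cells, rose. The other 8 did not pass the test. Tests were made with limma on log2(intensity + 16), two-sided, with Benjamini-Hochberg adjustment over all 12393 genes at 0.05, and changes are miR-34a minus vector on that scale, which understates the change of low genes. Of all genes 11.7% passed, 6.5% as higher and 5.25% as lower, beside 2 of the 10 receptor genes, a count too small to set the receptors apart. The 805 higher and 651 lower calls over all genes became 451 and 992 when each array was centred on its median. The groups did not overlap in 4 of the 10 genes, Met, Axl, Ddr1 and Ddr2, against 34.9% of all genes. The changes of the 10 genes had a median of 0.16, against 0.024 over all genes tested, and 7 were above 0. Of the 4 published miR-34a targets, Met was lower and the values of Axl, Pdgfra and Pdgfrb were above 0.

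**Figure D1:**
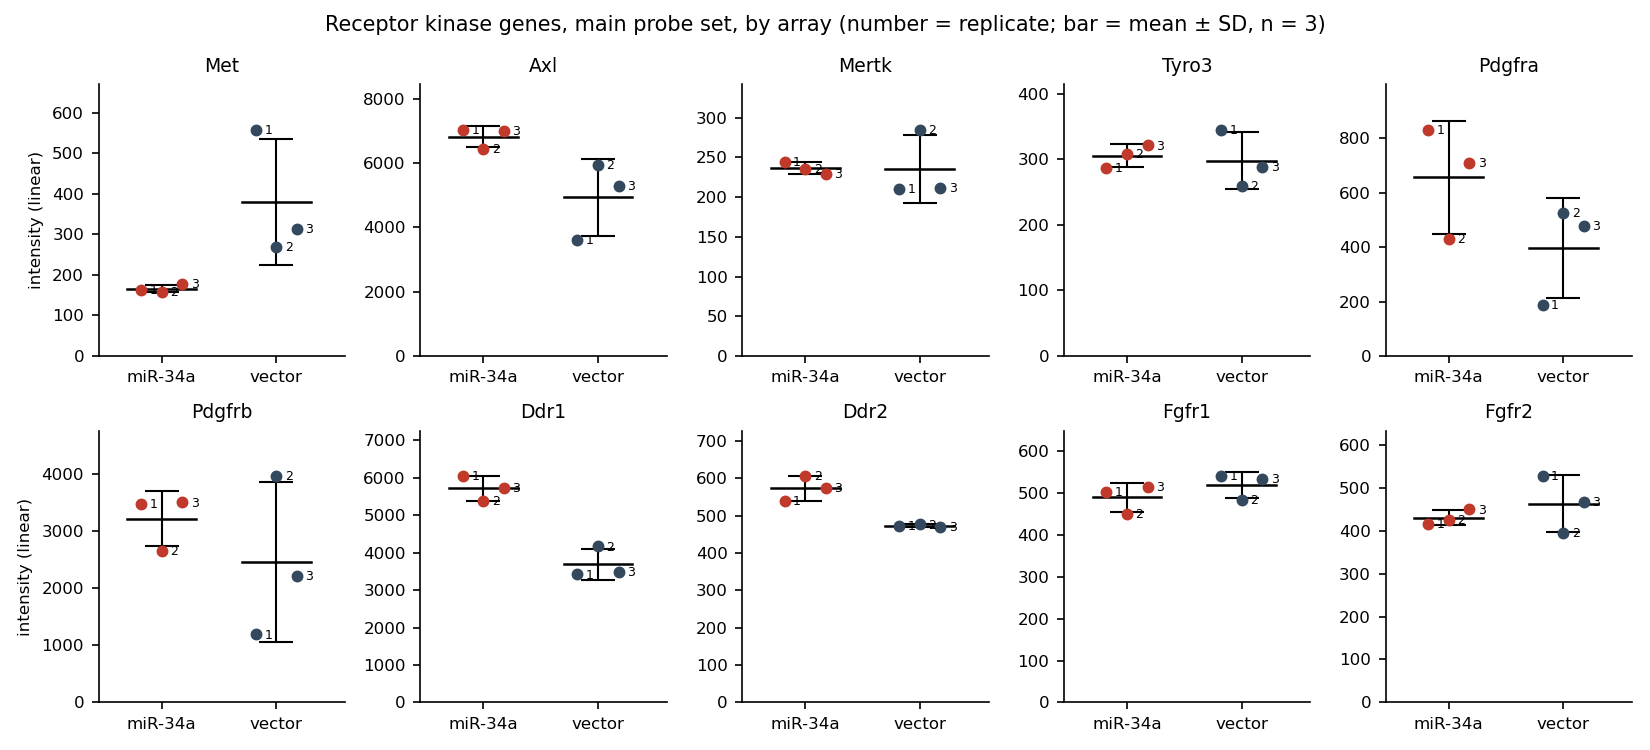
Linear intensity (vertical axis, from 0) of the main probe set of each of the 10 receptor genes in the 3 miR-34a samples and the 3 vector samples; points are arrays with their replicate number, and bars are the mean ± SD. Met lies between 159 and 177 in all miR-34a samples, below every vector sample, and vector 1 is the lowest vector point for Axl, Pdgfra and Pdgfrb and the highest for Met.

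Met had an intensity of 163, 159 and 177 in miR-34a samples 1, 2 and 3, against 558, 269 and 312 in vector samples 1, 2 and 3. The miR-34a arrays were alike and all lay below the vector arrays, of which vector 1 was much the highest. The mean was 7.51 ± 0.073 in miR-34a and 8.56 ± 0.53 in vector samples (log2, SD, n = 3). Met thus fell by 1.05 ± 0.24 on the log2 scale (SE; adjusted p = 0.0366 in limma), and its level was 2.07-fold higher in vector samples. The miR-34a values lay near the lower quartile of all probe sets on an array, which ran from 167 to 177, so Met was dim there, and no detection calls were used to tell it from background. Without vector 1 the change was -0.75, and the adjusted p was 0.00346. The call was lost without miR-34a 1 (adjusted p = 0.123), miR-34a 2 (0.11), miR-34a 3 (0.118) or vector 3 (0.0712), with changes from -1.15 to -1.02. A single probe set measured Met. The 15 epithelial marker genes, the class of cells in which Met is best known, had a mean level of 10.66 to 10.68 in miR-34a and 10.54 to 10.71 in vector samples (log2), with vector 1 the highest of the 6 arrays. Of these 15, 1 passed, or 6.67% against 11.7% of all genes. It was the tight junction gene Ocln, which rose by 1.98 (limma adjusted p = 0.00201) and kept its call without each array. The epithelial transcription factor gene Elf3 had the same high vector 1 as Met, with 621, 742 and 755 in miR-34a samples and 4180, 1137 and 923 in vector samples. Its change of -1.20 did not pass (adjusted p = 0.182), and without vector 1 it was -0.53 and passed. Vector 1 was the highest of the 6 arrays also for Krt19, at 19739, and for Cldn4, Cldn7, Esrp2, Krt7 and Ovol2. Other epithelial markers went the opposite way: vector 1 was the lowest array for 5 of the 15, Ocln and Epcam among them. Epcam read 1001, 1142 and 951 in miR-34a samples and 305, 977 and 1463 in vector samples. Ocln, Elf3, Epcam, Cldn4, Cldn7, Esrp2, Krt7 and Ovol2 were named after their values were seen. The part of epithelial markers in the Met value was not tested.

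Axl, Mertk and Tyro3 form the TAM family, receptors for Gas6 and protein S, which let phagocytes clear dying cells and damp inflammation; Axl is also expressed in mesenchymal cells and invasive tumours. The main Axl probe set read 7042, 6444 and 7005 in miR-34a samples, against 3599, 5936 and 5281 in vector samples. The groups did not overlap, and vector 1 lay well below the rest. The change of 0.50 ± 0.18 did not pass (SE; limma adjusted p = 0.123) and was 0.28 without vector 1 (adjusted p = 0.0806). A second, dim Axl probe set, 1438621_x_at, read 45.35, 49.7 and 62.0 in miR-34a samples and 19.3, 33.4 and 23.55 in vector samples. In the fit over all probe sets, of which 13% passed, it was higher in miR-34a samples, with a change of 0.73 ± 0.15 (SE; limma adjusted p = 0.0228), but a pseudocount of 1 gave 1.04 and a pseudocount of 64 gave 0.38. This call was lost without miR-34a 1, 2 or 3 or vector 3, where the adjusted p ran from 0.0633 to 0.0932.

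Mertk, the TAM receptor of macrophages, read 244, 235 and 229 in miR-34a samples and 210.05, 285 and 212 in vector samples. The groups overlapped, and the spread among vector arrays was larger than the difference. Its change was 0.02, with a 95% confidence interval from -0.28 to 0.31. Tyro3, the TAM receptor best known in the nervous system, read 286, 309 and 321 in miR-34a samples and 345, 259.8 and 289 in vector samples. These also overlapped, with a change of 0.04 (95% interval -0.23 to 0.31) and 0.06 (-0.24 to 0.37) for its second probe set, 1425248_a_at. These intervals leave room for changes of about the size seen for Ddr2. The 13 macrophage markers, whose brightest members were Ctss, Lyz2 and C1qa, had a mean level of 10.38 to 10.56 in miR-34a and 9.64 to 10.34 in vector samples (log2). Of the 13, 2 rose and 1 fell, 23.1% against 11.7% of all genes, and these 3 were named after their values were seen. The complement gene C1qb rose by 1.13 (adjusted p = 0.0463) and kept its call only without vector 1, at 0.78, among the fits that left out 1 array. The Fc receptor gene Fcgr1 rose by 0.98 (adjusted p = 0.0345) and lost its call without miR-34a 1, 2 or 3 or vector 3, with a change of 0.71 without vector 1. The mannose receptor gene Mrc1 read 1368, 1349 and 1482 in miR-34a samples, against 2928, 2671 and 2790 in vector samples. It fell by 0.99 (adjusted p = 0.00264), in the direction opposite to C1qb and Fcgr1, and kept its call without each array. For 11 of the 13 the lowest array was vector 1, as it was for Axl. For Mertk, vector 1 at 210.05 was about level with vector 3 at 212. The part of the macrophage markers in the TAM receptor values was not tested.

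Pdgfra and Pdgfrb, the receptors for platelet-derived growth factors, mark fibroblasts and, for Pdgfrb, pericytes. Pdgfra read 832, 429 and 708 in miR-34a samples, against 187, 526 and 478 in vector samples. The groups overlapped, since miR-34a 2 lay below vector 2 and vector 3, and vector 1 was the lowest. The change was 0.78 ± 0.40 (SE; limma adjusted p = 0.263; 95% interval -0.18 to 1.73). It was 0.33 without vector 1 (adjusted p = 0.404) and ran from 0.58 to 1.05 without any other array. The second Pdgfra probe set, 1421916_at, read 276, 235 and 269 in miR-34a samples and 291, 263 and 244 in vector samples, a change of -0.03 (95% interval -0.27 to 0.21), and did not show the low vector 1.

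Pdgfrb read 3483, 2660.3 and 3504.5 in miR-34a samples, against 1191, 3964 and 2211 in vector samples. The vector arrays spanned 1.72 log2 units and the miR-34a arrays, which lay inside that span, 0.40. The change was 0.54 ± 0.39 (SE; limma adjusted p = 0.423; 95% interval -0.38 to 1.46), and 0.11 without vector 1 (adjusted p = 0.802), against 0.97 without vector 2 (adjusted p = 0.0755). Its second probe set, 1417148_at, read 453, 425 and 518 in miR-34a samples and 318, 509.8 and 349 in vector samples, a change of 0.26 ± 0.18. The order of the 3 vector arrays was the same on both Pdgfrb probe sets, with vector 1 lowest and vector 2 highest.

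The mean of the 16 fibroblast markers shared the low vector 1 of the main Pdgfra and Pdgfrb probe sets. This mean was 11.63, 11.30 and 11.67 in miR-34a samples 1, 2 and 3 (log2). In vector samples 1, 2 and 3 it was 10.09, 11.38 and 11.14. Vector 1 was the lowest array for 13 of the 16 markers. The brightest, the fibronectin gene Fn1, the collagen gene Col1a2 and the fibulin gene Fbln2, had changes of 0.68, 0.92 and 0.36, none of which passed, and of 0.30, 0.36 and 0.195 without vector 1. The 3 of 16 that passed, 18.8% against 11.7% of all genes, were Pcolce, Thy1 and Twist1, all higher, which were named after their values were seen. Pcolce, an enhancer of procollagen processing, rose by 0.81 (adjusted p = 0.0193) and lost its call without miR-34a 1, miR-34a 3 or vector 3. The surface antigen gene Thy1 rose by 1.73 (adjusted p = 0.0309) and lost its call without miR-34a 1, 2 or 3 or vector 3. The transcription factor gene Twist1 rose by 1.56 (adjusted p = 0.0264) and lost its call without miR-34a 1, 2 or 3. Without vector 1 Thy1 and Twist1 had changes of 1.27 and 1.15, and both passed. The 10 pericyte and smooth muscle markers, led by Acta2, Tagln and Rgs5, had a mean level of 8.61 to 8.94 in miR-34a and 8.47 to 9.01 in vector samples. Of these, 5 of 10 had a change below 0 and 1 passed, or 10% against 11.7% of all genes. The call was the potassium channel subunit gene Abcc9, named after its values were seen. Abcc9 read 86.7, 98.0 and 92.3 in miR-34a samples, against 154, 212 and 178 in vector samples, and fell by 0.86 (adjusted p = 0.00916), a call lost without miR-34a 1 or miR-34a 3. Its miR-34a values lay below the lower quartile of an array, 167 to 177, and a single probe set measured it. In a bulk sample fewer cells of a type and less RNA per cell cannot be told apart, and the part of these markers in the Pdgfra and Pdgfrb values was not tested.

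**Figure D2:**
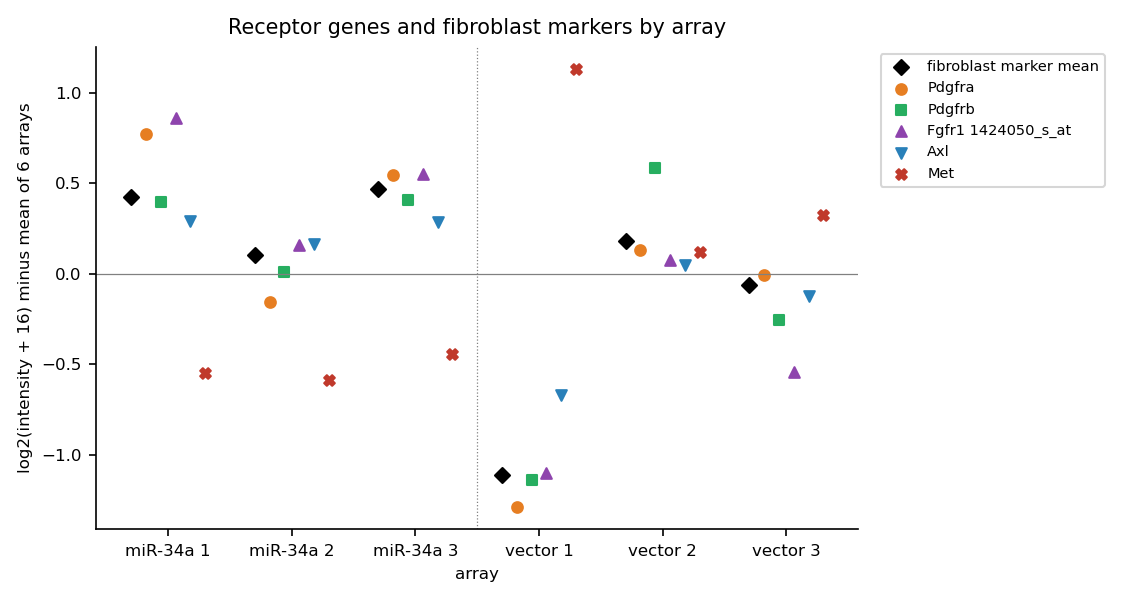
Level on each of the 6 arrays, as log2(intensity + 16) minus the mean of the 6 arrays (vertical axis), for the mean of 16 fibroblast markers, 4 receptor probe sets that share its low vector 1, and Met. Vector 1 lies at -1.11 for the fibroblast markers, -1.29 for Pdgfra, -1.14 for Pdgfrb, -1.10 for Fgfr1 1424050_s_at and -0.67 for Axl, and at 1.13 for Met.

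Ddr1 and Ddr2, the discoidin domain receptors, are activated by collagen rather than by a soluble growth factor; Ddr1 is typical of epithelial cells and Ddr2 of fibroblasts. The main Ddr1 probe set, 1456226_x_at, read 6039, 5374 and 5736 in miR-34a samples, against 3416.5, 4165 and 3480.2 in vector samples. Every miR-34a array lay above every vector array, and vector 1 did not stand apart. Ddr1 rose by 0.63 ± 0.10 (SE; limma adjusted p = 0.0141), or 1.55-fold, and without any single array the change lay between 0.58 and 0.73. The call was lost without miR-34a 1 (adjusted p = 0.0699), miR-34a 3 (0.0745) or vector 3 (0.0503).

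Ddr1 had 8 probe sets, and they did not move alike. Beside the main set, 1438367_x_at at 0.64 ± 0.11 and 1415797_at at 0.61 ± 0.098 also passed over all probe sets (SE; limma adjusted p = 0.0148 and 0.0113), and 1415797_at read 1522, 1419 and 1408 in miR-34a samples and 922, 1055 and 863 in vector samples. In these 3 sets the groups were separate. The other 5 did not pass, with changes of 0.42 for 1435820_x_at, 0.34 for 1437619_x_at, 0.14 for 1415798_at, 0.12 for the dim 1439382_x_at and -0.09 for 1459990_at. An x in such a name marks a set with probes that can match other transcripts, and sets of 1 gene may share sequence, so the 8 are not independent. With the mean of all 8 probe sets, the Ddr1 change was 0.35 and did not pass (adjusted p = 0.0664). The call of 1438367_x_at was lost without miR-34a 1, miR-34a 3 or vector 3, and that of 1415797_at without miR-34a 1 or miR-34a 3.

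Ddr2 read 539.9, 606 and 575 in miR-34a samples, against 472, 477 and 469 in vector samples. The groups were separate, and the vector arrays, vector 1 among them, were nearly equal. The change of 0.27 ± 0.078 did not pass (SE; limma adjusted p = 0.0692; 95% interval 0.085 to 0.45), and ran from 0.23 to 0.31 with each array left out.

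**Figure D3:**
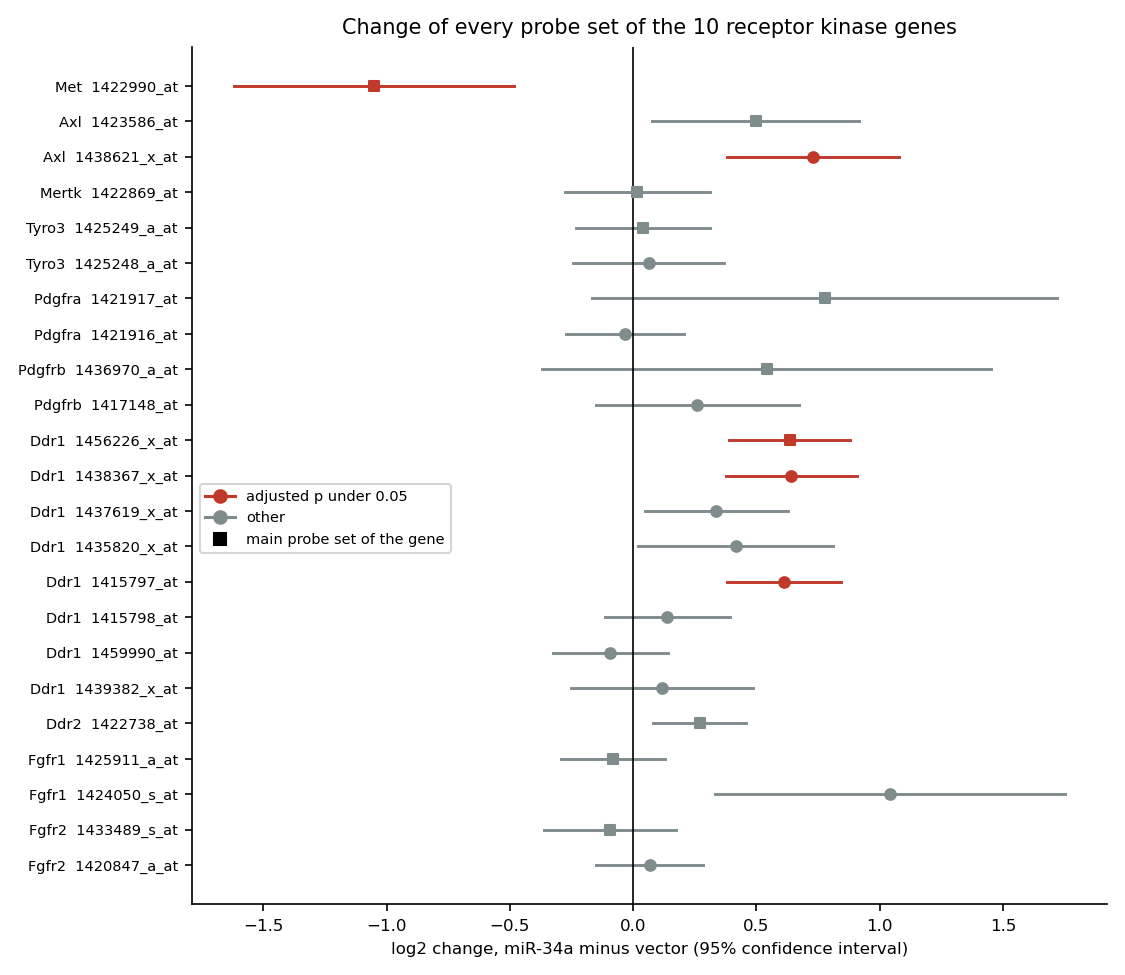
Change of each of the 23 probe sets, as log2 miR-34a minus vector (horizontal axis) with its 95% confidence interval; squares are the main probe set of a gene, and red marks an adjusted p under 0.05 over all probe sets. Passing sets are the Met set at -1.05, 1 of 2 Axl sets at 0.73 and 3 of 8 Ddr1 sets at 0.61 to 0.64.

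Fgfr1 and Fgfr2 are receptors for fibroblast growth factors, with splice forms typical of mesenchyme and of epithelium. The main Fgfr1 probe set, 1425911_a_at, read 503, 451 and 514 in miR-34a samples and 539.98, 483 and 533 in vector samples. These overlapped, with a change of -0.08 (95% interval -0.29 to 0.13). The other Fgfr1 set, 1424050_s_at, read 807, 490.25 and 649.8 in miR-34a samples, against 196, 463 and 296 in vector samples. There the groups were separate, vector 1 was the lowest array, and the change of 1.04 ± 0.30 did not pass over all probe sets (SE; limma adjusted p = 0.0653). It was 0.75 without vector 1 (adjusted p = 0.0659) and passed without vector 2, at 1.34 (adjusted p = 0.023). The direction for Fgfr1 thus depended on the probe set, and the mean of both was 0.48 (adjusted p = 0.0995). The s in the name marks probes that several transcripts share.

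Fgfr2 read 415, 425 and 449 on its main set in miR-34a samples and 527, 395 and 466 in vector samples. The miR-34a values lay inside the vector range, with a change of -0.09 (95% interval -0.36 to 0.18). Its second set, 1420847_a_at, had a change of 0.07 (95% interval -0.15 to 0.28). In all, 5 of the 23 probe sets passed, 4 as higher and 1 as lower, or 21.7% against 13% of all probe sets. The groups were separate in 8 of the 23, or 34.8%, against 34.9% of all probe sets, so that share was the same as the background.

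**Figure D4:**
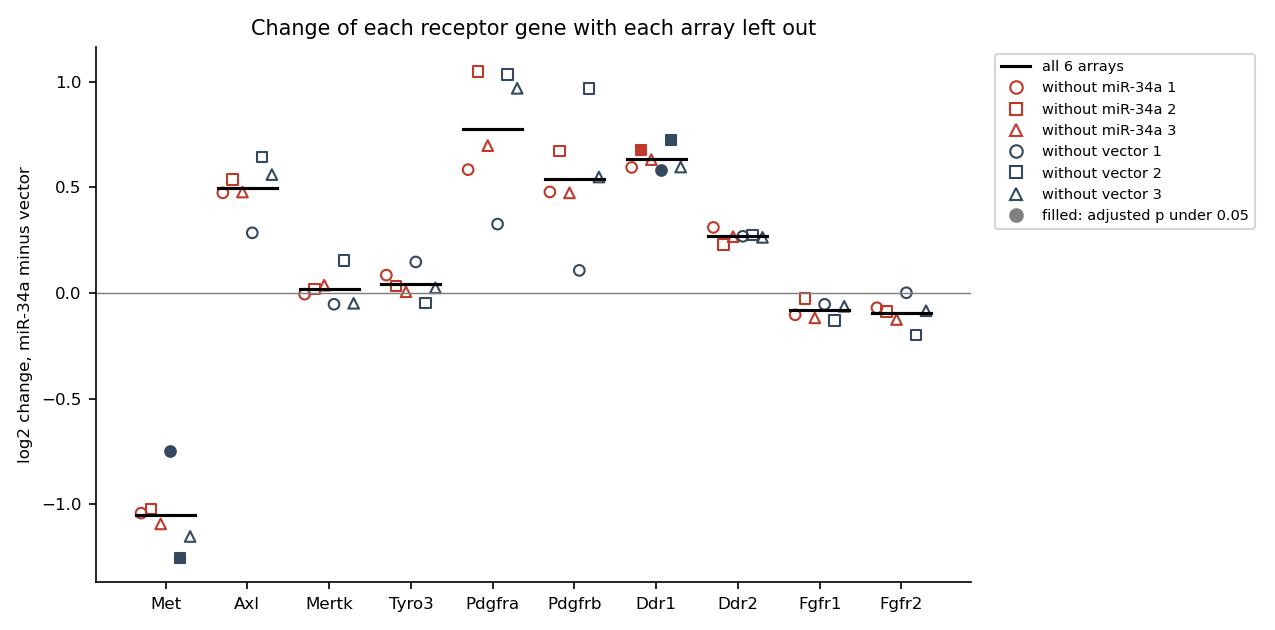
Change of each receptor gene (vertical axis, log2 miR-34a minus vector) with all 6 arrays (black line) and with each array left out (points; filled where the adjusted p was under 0.05). Without vector 1, Met moved to -0.75, Axl to 0.28, Pdgfra to 0.33 and Pdgfrb to 0.11, while Ddr1 stayed between 0.58 and 0.73 in all 6 fits.

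The array pattern of the published targets was set against that of all genes with a mean level above the median, by the root mean square difference of centred log2 values over the 6 arrays. Nearest to Met were Pmvk at 0.061, Suclg2 at 0.125 and Rida at 0.126, which had changes of -1.01, -1.08 and -1.12. Nearest to Axl were Socs5 at 0.040, Timp2 at 0.043 and Stx6 at 0.056. Nearest to Pdgfra were Sting1 at 0.082, Tceal8 at 0.124 and Sparc at 0.14, and nearest to Pdgfrb were Loxl3 at 0.091, Col5a3 at 0.125 and Tagln at 0.131. Over 6 arrays with 1 that stands apart, many genes share such a pattern, and the distances are a description.

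Of the 36 measured ligands and co-receptors 1 passed: Fgf18, a fibroblast growth factor of lung and skeleton, was higher, and 0 were lower. This share, 2.78%, lay below the 11.7% of all genes, and the list's median change was -0.0037. Fgf18 read 313, 289 and 316 in miR-34a samples, against 203, 175 and 189 in vector samples, with the groups well apart. It changed by 0.65 ± 0.086 (SE; limma adjusted p = 0.00821) and lost its call without miR-34a 3. Pdgfb, a ligand of both PDGF receptors, read 1026, 1111 and 1195 in miR-34a samples and 606, 889 and 812 in vector samples. Its groups were separate but the change of 0.54 ± 0.15 did not pass (SE; limma adjusted p = 0.0604), and its other probe set had a change of 0.092. It passed without vector 1, at 0.38, and without vector 2, at 0.65. Klb, a co-receptor for endocrine FGFs, had a change of 0.35 (adjusted p = 0.127) and passed without vector 1, at 0.47. Without vector 1, 3 members of the list were higher and 1, Pdgfa, was lower. Over all 12393 genes that fit had 1247 higher and 886 lower calls, so the ligands did not stand out.

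The ligand of Met, Hgf, read 207, 176 and 222 in miR-34a samples and 256, 223 and 271 in vector samples. Its groups were just separate, and the change of -0.29 ± 0.11 did not pass (SE; limma adjusted p = 0.148). Gas6, the ligand of the TAM family, read 1212, 641 and 1411 in miR-34a samples and 309.9, 906 and 728 in vector samples, and Pros1, the gene of protein S, read 438, 404 and 485 in miR-34a samples and 183, 537 and 330.1 in vector samples. Both overlapped and both had vector 1 lowest, with changes of 0.79 ± 0.43 and 0.44 ± 0.33 that did not pass (SE; limma adjusted p = 0.289 and 0.44). Without vector 1 these were 0.34 and 0.063. Pdgfa, Pdgfc and Pdgfd had changes of -0.12, 0.32 and 0.03, and Fgf2 and Fgf7 of 0.18 and -0.10, none of which passed. Pdgfa read 810, 704 and 899 in miR-34a samples and 365, 1318 and 1352 in vector samples, and the low vector 1 decided its value. Without vector 1 its change was -0.73 and passed, and those of Pdgfc and Fgf2 were 0.15 and 0.049.

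Among 11 collagen genes that include the ligands of Ddr1 and Ddr2, Col1a1, Col1a2, Col3a1 and Col5a1 also stand among the fibroblast markers. Of the 11, 0 passed in limma and 2 had an unadjusted p under 0.05. Over all genes 11.7% passed and 3498 of 12393 had an unadjusted p under 0.05. The median change of the 11 was 0.35, against 0.024 over all genes. It was -0.021 without vector 1, which was the lowest array for 8 of the 11. The basement membrane collagen gene Col4a1 had a change of 0.35 ± 0.11 and Col8a1 of 1.18 ± 0.43 (SE; limma adjusted p = 0.0816 and 0.128). Without vector 1 these were 0.26 and 0.65, and a second Col8a1 probe set had a change of -0.595. Col1a2, a chain of fibrillar collagen I, had 13685, 9125 and 13356 in miR-34a samples and 2897, 10290 and 8256 in vector samples, a change of 0.92 (adjusted p = 0.235) and of 0.36 without vector 1.

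In the cytoplasmic relay below the receptors, 2 of 26 measured genes rose and 2 fell, 15.4% against 11.7% of all genes, and the list's median was 0.014. Map2k1, the kinase MEK1 of the RAS-MAP kinase route, read 4534, 4402 and 4116 in miR-34a samples and 5869, 5672 and 6204 in vector samples, and fell by 0.44 (adjusted p = 0.0193). Sos1, the exchange factor that activates RAS, fell by 0.44 (adjusted p = 0.0306). The transcription factor gene Stat3 read 2892, 2795 and 2818 in miR-34a samples and 1570.5, 2119 and 1880 in vector samples, and rose by 0.62 (adjusted p = 0.0206), as did the kinase gene Akt2, by 0.55 (adjusted p = 0.0372). The groups were separate for each of these 4. The calls of Map2k1, Stat3 and Akt2 were lost without miR-34a 1, 2 or 3 or vector 3, and that of Sos1 without miR-34a 1 or 3 or vector 3. Other probe sets had changes of -0.376 and -0.088 for Sos1, 0.211 and 1.01 for Stat3 and 0.117 for Akt2. The part of the RAS-MAP kinase route measured here lacks 8 of the 34 listed genes, which had no probe set annotated to their symbol alone.

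Of 21 measured inhibitors of receptor signalling 4 rose and 1 fell, or 23.8% against 11.7% of all genes, with a median change of 0.14. Ptprf, a receptor-type phosphatase, read 4566, 4437 and 4071 in miR-34a samples and 2706.5, 2981 and 2771 in vector samples, and rose by 0.62 ± 0.085 (SE; limma adjusted p = 0.00846). It lost its call without miR-34a 1, and its 2 other probe sets had changes of 0.406 and 0.458. Ptpn1, the phosphatase PTP1B, rose by 0.62 (adjusted p = 0.0332), Ptprj by 0.45 (0.0388) and Lrig1, a membrane protein that promotes loss of receptors including Met, by 0.45 (0.0409). Spred2, an inhibitor of RAS-MAP kinase signalling, fell by 0.36 (0.0434). Their other probe sets had smaller values: 0.174 for Ptpn1, 0.040 to 0.295 for Ptprj, -0.11 and 0.239 for Lrig1 and 0.0019 for Spred2. The calls of Ptpn1, Ptprj, Lrig1 and Spred2 were lost in most fits that left out 1 array. Ptpn1 lost its call without miR-34a 1, 2 or 3 or vector 3. Ptprj, Lrig1 and Spred2 lost theirs without each of the arrays other than vector 1. In the 6 fits the change ran from 0.53 to 0.78 for Ptpn1 and from 0.37 to 0.51 for Ptprj. It ran from 0.39 to 0.56 for Lrig1 and from -0.40 to -0.29 for Spred2. Leaving out miR-34a 1 gave 0 higher inhibitors, leaving out miR-34a 2, miR-34a 3 or vector 3 gave 1, leaving out vector 2 gave 2 and leaving out vector 1 gave 5. Higher calls over all genes numbered 121, 303, 98 and 314 without miR-34a 1, 2 and 3 and vector 3. They numbered 735 without vector 2 and 1247 without vector 1, against 805 with all 6 arrays. The single lower call was lost without each of the arrays other than vector 1. Without vector 1, 2 inhibitors were lower, beside 886 lower calls over all genes, against 651 with all 6 arrays.

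Of 18 early response genes, which MAP kinase signalling switches on, 0 passed in limma and 8 had an unadjusted p under 0.05, with 12 values above 0 and a median of 0.15. Over all genes 11.7% passed, 3498 of 12393 had an unadjusted p under 0.05, and the median was 0.024. The zinc finger genes Egr2 and Egr1 had changes of 1.11 ± 0.34 and 0.88 ± 0.28 (SE; limma adjusted p = 0.0819 and 0.0907), and Jund of 0.23. Egr1 read 4169, 5733 and 5586 in miR-34a samples, against 1744, 3756 and 3214 in vector samples. Its groups were separate, with vector 1 lowest, and without vector 1 the changes were 0.55 for Egr1 and 0.68 for Egr2. In that fit 3 members of the list were higher and 2 lower, beside 1247 higher and 886 lower calls over all 12393 genes. Without vector 2, 1 member was higher, beside 735 higher calls over all genes.

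Among 26 other measured receptor kinases outside the Eph and ErbB families, Flt4, the VEGF receptor of lymphatic vessels, was the single call and was higher, or 3.85% against 11.7% of all genes, and the list's median was 0.024. Flt4 read 1157, 1251 and 1273 in miR-34a samples and 978, 1016 and 953 in vector samples, a change of 0.32 ± 0.079 (SE; limma adjusted p = 0.0453). It lost the call without each of the arrays other than vector 1, and its other probe set had a change of 0.122. Ptk7, a receptor of planar cell polarity without kinase activity, read 785, 757 and 819.9 in miR-34a samples and 298, 587 and 462 in vector samples, a change of 0.84 (adjusted p = 0.0522) that passed without vector 1, at 0.58, and without vector 2, at 1.05. Tek, the angiopoietin receptor, had a change of 0.23 (adjusted p = 0.102). Tek stands in the endothelial marker list too, with Flt1, Eng and Cdh5 the brightest of its 12 genes. The 12 had a mean level of 9.17 to 9.20 in miR-34a and 8.78 to 9.39 in vector samples (log2). Of the 12, 0 passed in limma, against 11.7% of all genes. An unadjusted p under 0.05 was found for 2 of the 12, against 3498 of all 12393 genes.

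**Figure D5:**
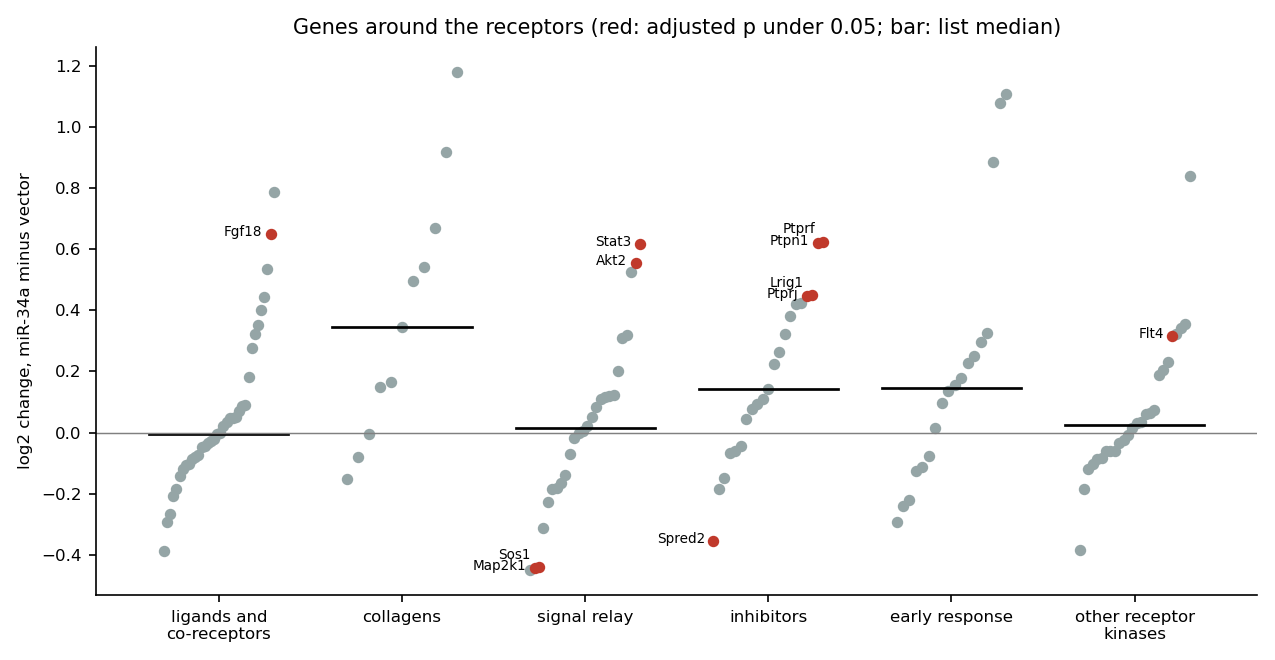
Change of each measured gene (vertical axis, log2 miR-34a minus vector) in 6 lists of genes around the receptors; points are genes ordered by change within a list, red marks an adjusted p under 0.05 and bars are list medians. Calls are 1 of 36 ligands, 0 of 11 collagens, 4 of 26 relay genes, 5 of 21 inhibitors, 0 of 18 early response genes and 1 of 26 other receptor kinases.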

How the data were processed

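Messenger RNA was measured in 3 miR-34a and 3 vector samples on Affymetrix mouse arrays from biotin-labelled total RNA, as the labels' protocols state. The authors deposited linear intensities of 22690 probe sets. No source used here gives their summarisation or normalization. Array medians lay between 466.7 and 484.2, and the values were taken as already scaled. Titles gave each sample's group and replicate number.

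Probe sets were named from the platform annotation. Symbols were brought up to date by Entrez identifier in the RefSeq table of GRCm38.p6. A single symbol was found for 20380 probe sets (29 as annotated), several for 691 and none for 1555, and 64 control probe sets were left out. Log2(intensity + 16) was fitted in R 4.3.3 with limma 3.58.1 (lmFit, eBayes), once over 12393 genes and once over 22626 probe sets. The fit was tested on simulated data.

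Named genes were the 10 receptors, fixed ligands, called members of each pathway list (up to 8, or the 3 with the smallest p), the 3 brightest markers per list and the 3 nearest profiles of each published target. Further markers, such as Cdh1, were named outside this rule. Members and lists were chosen with earlier results of these data known. Alternatives were quantile normalization, median centring, a filter on low genes, pseudocounts of 1 and 64, a robust trend, array weights, a replicate block, the mean of probe sets and fits without each array; those on single probe sets were chosen after seeing the data. Figures were drawn with matplotlib 3.10.9.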

Additional observations from a re-analysis of the deposited data

How the results depend on the processing

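Met kept its direction in all 15 alternative fits and its call in 10, and Ddr1 likewise in 15 and 10. No value of Axl, Pdgfra, Pdgfrb or Ddr2 changed sign in any of the 15. Axl passed with array weights (0.39, adjusted p = 0.0299) and with the mean of its probe sets (0.61, 0.0453), and Ddr2 with array weights (0.26, 0.0254). Calls among the 10 receptor genes numbered 4 with array weights and ran from 0 to 2 with each array left out. Values near 0 changed sign: Mertk was -0.078 and Tyro3 -0.054 with median centring, Fgfr1 was 0.48 with the mean of its probe sets, and with arrays left out Mertk ran from -0.053 to 0.153, Tyro3 from -0.048 to 0.147 and Fgfr2 from -0.199 to 0.00136. Over all genes, higher and lower calls numbered 451 and 992 with median centring and 1919 and 1319 with array weights, and ran from 98 to 1247 and from 128 to 886 with each array left out. The causes were not tested, except that median centring shifted the median change of all genes to -0.071, against 0.024.

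With the replicate number as a block, 250 genes were higher and 272 lower and 0 receptor genes passed (Met -1.05, adjusted p = 0.0586; Ddr1 0.63, 0.0552). Deviations of same-numbered samples from their group means correlated at -0.168, -0.0935 and -0.0812. No shared deviation by number was seen, but 3 arrays a group cannot establish that the samples were unpaired. With each array left out, higher and lower calls ran from 0 to 3 and 0 to 1 for ligands, from 0 to 2 and 0 to 2 for relay genes, from 0 to 5 and 0 to 2 for inhibitors, and from 0 to 3 and 0 to 2 for early response genes. For other receptor kinases higher calls ran from 0 to 2. The collagen median ran from -0.021 to 0.40. Low signal limits what can be said of Met and Hgf, near the lower quartile of an array, and of the second Axl set, below it. Fgf18 in vector samples, at 175 to 203, and Sos1 in miR-34a samples, at 181 to 222, also lay near the lower quartile. The same limit holds for Abcc9 in miR-34a samples, at 86.7 to 98.0, and Twist1 in vector 1, at 63.8. Pdgfd, at 8.91 to 31.1, and Fgf2, at 17.2 to 31.3, were dimmer still.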
